A study of Mus musculus with 4 samples.

Results

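Broad H3K4me3 domains without H3K27me3 were stretches of at least 5 kb in which every 1 kb bin carried H3K4me3 at 3-fold or more in mouse embryonic fibroblasts (MEF), while H3K27me3 stayed under 2-fold on average. There were 1489 such domains among 35416 autosomal H3K4me3 regions of any length. Fold here is the number of reads in a bin, or their mean over a region, divided by the mean of the same library over the 2160741 autosomal 1 kb bins in which at least 1 of the libraries had a read. Adjacent bins past the H3K4me3 threshold were joined into regions. The H3K4me3 and H3K27me3 reads of MEF thus chose the domains, so their values inside the domains are a description. H3K9me3 took no part in the choice.

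Trimethylation of lysine 4 on histone H3 (H3K4me3) is placed around the start sites of active and poised genes by COMPASS-type methyltransferases, usually over a short stretch next to a CpG island. Long H3K4me3 domains are known from many cell types, where they often cover genes that are strongly transcribed or tied to the identity of the cell. H3K27me3 is the product of Polycomb repressive complex 2, is tied to silenced developmental genes, and can share promoters with H3K4me3, a state called bivalent. H3K9me3 is a mark of heterochromatin and is as a rule sparse at active promoters.

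There were 4 groups of 1 library each from chromatin immunoprecipitation with sequencing (ChIP-seq). H3K4me3, H3K27me3 and H3K9me3 were mapped in MEF grown in DMEM with 10% fetal serum, for which the labels give no strain, genotype or age. H3K9me3 was also mapped in secondary MEF, which were harvested at 13.5 days post coitum from chimeras made by injecting induced pluripotent stem cells into BDF2 blastocysts. Those cells carried Oct4, Klf4 and Sox2 under doxycycline control and a cassette for selection by Oct4, and had been derived with Wnt3a-conditioned medium. Puromycin at 2 µg/ml over 48 hours kept the fibroblasts that came from the injected cells, and they were grown with 10% cosmic calf serum. Neither group is labelled as given doxycycline, and how many embryos or clones were pooled is not stated. As each group is a single library, differences describe these libraries and could not be checked against replicates. Intervals are 95% intervals for counting error only, unless another level is given. The H3K9me3 libraries differ in cell source, serum, puromycin selection and flow cell at once, and the influence of these cannot be told apart. The labelled cell type was not checked against marker genes, and domains are named by position on mouse build mm8, because gene models and sequence of that build were not used here.

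The libraries held 12244976 (H3K4me3), 9783343 (H3K27me3), 8912579 (MEF H3K9me3) and 7986294 reads with a single location (secondary MEF H3K9me3). On the autosomes this gave a mean of 5.57, 4.42, 4.03 and 3.63 reads per 1 kb bin. A median domain held 780 H3K4me3 reads, 37 H3K27me3 reads, 39 MEF H3K9me3 reads and 55 secondary MEF H3K9me3 reads, so the 3 weaker signals are coarse in any single domain and firm only when reads are pooled. Of the H3K4me3 reads in the domains 87.0% were at distinct positions, against 91.4% over all autosomes. For both H3K9me3 libraries this share was at least 97.4% in the domains.

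The domains were few and mostly short, with a long tail. They made up 4.20% of the H3K4me3 regions and 0.453% of the bins, yet held 10.3% of all autosomal H3K4me3 reads. Of the 1489 domains 687 (46.1%) were exactly 5 kb long and 322 were 6 kb long, and the median was 6 kb. Only 138 (9.27%) reached 10 kb, 29 reached 15 kb, 7 reached 20 kb and 2 reached 30 kb. The 811 regions of 5 kb or longer that did carry H3K27me3 had a similar tail, with 10.7% at 10 kb or more. Regions on both sides of the length limit looked alike: 1460 regions with low H3K27me3 were 4 kb long, with a median highest bin of 54.6-fold, and the 687 domains of 5 kb had one of 58.6-fold. Allowing 1 bin below the threshold inside a domain raised the number of domains to 2111, a threshold of 4-fold lowered it to 939 and a threshold of 2-fold raised it to 2663.

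**Figure D1:**
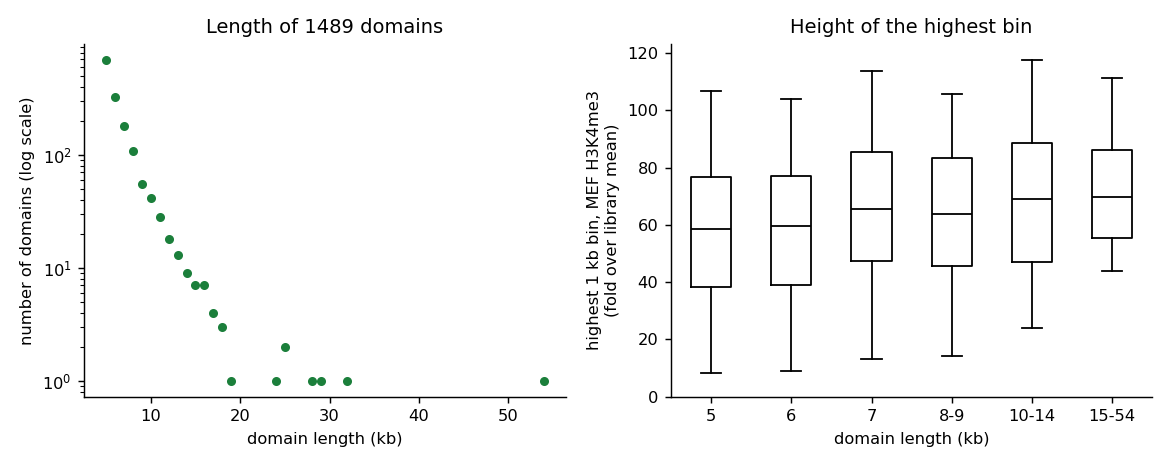
Left, the number of domains of each length in kb, on a log scale. Right, the highest 1 kb bin of MEF H3K4me3 in domains of each length class (line, median; box, quartiles; whiskers, the central 90%). Counts drop steeply from 687 at 5 kb to 1 domain of 54 kb, and the median highest bin goes from 58.6-fold at 5 kb to 69.2-fold at 10 to 14 kb.

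At the median, long domains had no wider summit than short ones, but single long domains varied. The highest 1 kb bin of a domain stood at a median of 61.3-fold (quartiles 41.0 and 79.4), and it held a median of 40.7% of all reads of the domain. Bins at or above 50% of the highest bin numbered a median of 2 in domains of 5 kb, and also 2 in those of 15 kb or more. Among the 10 longest domains this number ran from 1 to 7. The highest bin was hardly taller in long domains: its median was 58.6-fold at 5 kb, 69.2-fold at 10 to 14 kb and 70.1-fold at 15 to 19 kb. Across domains length and highest bin were only weakly tied (Spearman's rho 0.115, n = 1489 domains from a single library). At 15 kb or more, the highest bin held a median of 19.9% of the reads and 10 bins reached 10-fold, against 46.4% and 3 bins at 5 kb.

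The summit was the outermost bin in 101 domains. The lower end bin of a domain stood at a median of 3.95-fold and the higher one at 9.34-fold. Most domains, 1377 (92.5%), had a single summit, when a further summit had to reach 50% of the highest bin with a bin under 50% of the lower summit between them. A further summit was present in 2.47% of the domains of 5 kb, in 21.1% of those of 10 to 14 kb and in 17.2% of the 29 domains of 15 kb or more. When the bins were cut into 500 bp pieces, a median of 90% of the pieces of a domain were at 3-fold or more, but 283 domains held a piece under 1-fold. At the mean level such a piece holds only 2.78 reads.

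The longest domain covered 54 kb, at chr15:77617001-77671000. Its mean H3K4me3 was 14.5-fold, and its summit of 126-fold (117 to 136) was the 52nd of its 54 bins. Its first 44 bins formed a shoulder between 3.23-fold and 14.4-fold, with a median of 8.71-fold, and every bin of 15-fold or more was among the last 10 bins. Past the summit H3K4me3 was low again, at 5.75-fold in the outermost bin. In all, 25 of its bins were at 10-fold or more. In this domain H3K27me3 stood at 1.87-fold (1.70 to 2.05), MEF H3K9me3 at 2.25-fold (2.05 to 2.45) and secondary MEF H3K9me3 at 3.16-fold (2.92 to 3.42). The next longest, 32 kb at chr2:172889001-172921000, had a like outline, with a summit of 75.1-fold in its 30th bin and a mean of 13.5-fold. In the 29 kb at chr7:28643001-28672000 the summit of 107-fold was the 28th bin, and only 5 bins reached 10-fold. In each of these 3 domains the summit thus lay in the last 3 bins.

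The other long domains varied in how many bins were high. The domain of 28 kb at chr18:75491001-75519000 had 19 bins at 10-fold or more and 7 at 50% or more of its summit of 64.7-fold, which was its 5th bin. In the 25 kb at chr15:85492001-85517000, 11 bins reached 10-fold, and 6 were at 50% or more of the summit of 44.9-fold. The domain of 24 kb at chr6:30998001-31022000 had a summit of 44.0-fold, 4 bins at 50% or more of it and 7 bins at 10-fold or more. The domain of 19 kb at chr7:100789001-100808000 had the highest mean of the 10 longest, 31.5-fold, and 7 bins at 50% or more of its summit. The lowest mean among them, 7.52-fold, belonged to 25 kb at chr12:81127001-81152000, whose summit was only 21.0-fold, with 4 bins at 50% or more of it. At chr3:88574001-88592000, 18 kb held a summit of 132-fold with no other bin at 50% of it, and at chr6:34527001-34545000, also 18 kb, the summit was 57.8-fold. Summits of the 10 longest domains therefore spanned 21.0-fold to 132-fold, and the 1489 domains spanned 3.95-fold to 162-fold.

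**Figure D2:**
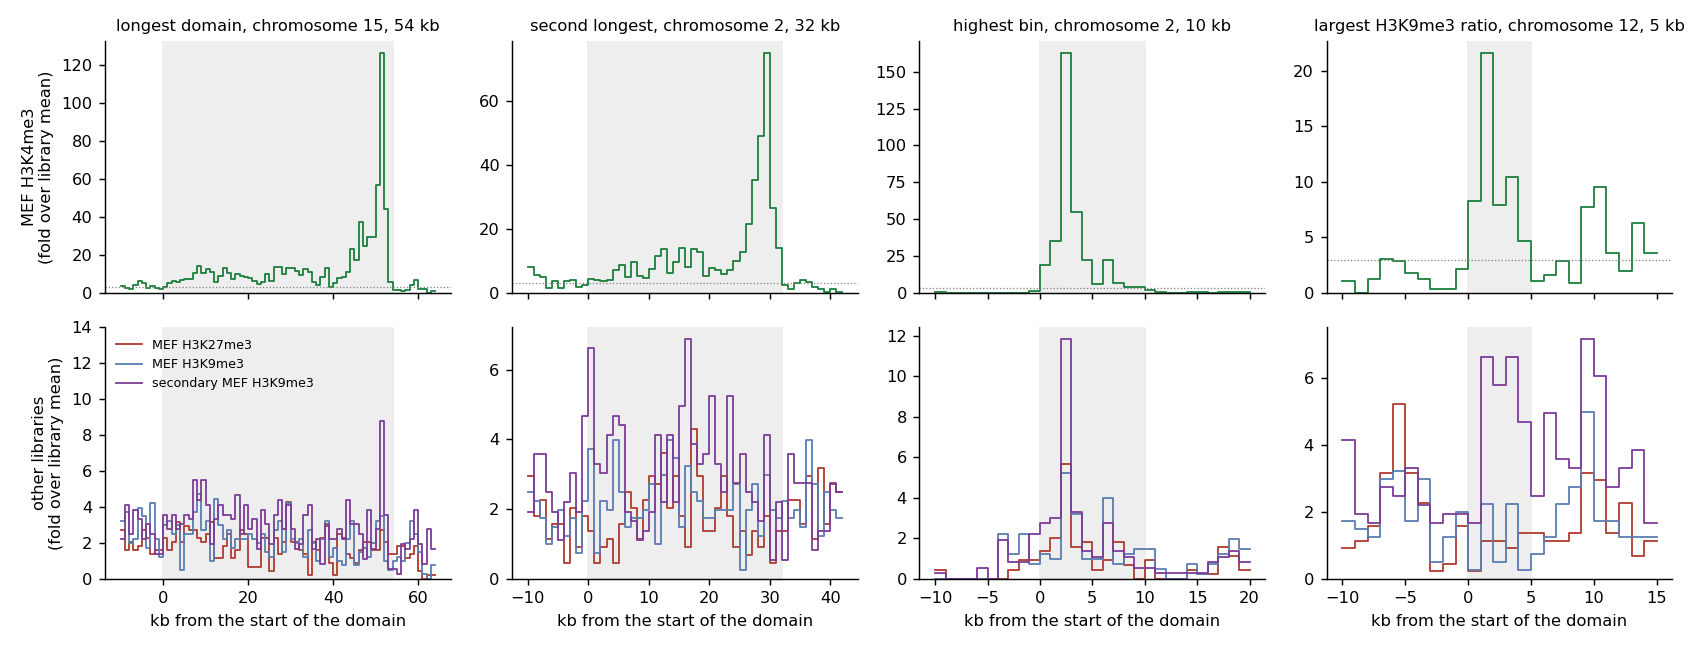
Reads per 1 kb bin, as fold over the library mean, along 4 domains (grey) and 10 kb on each side, with MEF H3K4me3 above and the other 3 libraries below; the x axis is the distance in kb from the start of the domain and the dotted line is the 3-fold threshold. The longest 2 domains show a low shoulder that ends in a summit near the right end, the domain with the highest bin (162-fold) a narrow summit, and the chromosome 12 domain a raised secondary MEF H3K9me3 level (5.06-fold) beside 1.09-fold in MEF.

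The highest summits were found in domains of moderate length. The 10 highest lay between 135-fold and 162-fold, in domains of 5 to 11 kb, and 4 of the 10 were on chromosome 2. The highest was 162-fold (152 to 173) at chr2:13492001-13493000, within 10 kb from 13490001 to 13500000. It was followed by 159-fold (148 to 169) in the 5 kb at chr2:26736001-26741000 and 146-fold (136 to 156) in the 7 kb at chr2:34592001-34599000. In the highest bin of all, H3K27me3 reached 5.65-fold, MEF H3K9me3 5.21-fold and secondary MEF H3K9me3 11.8-fold, so the other libraries peaked in the same 1 kb. Only 2 of the 1489 domains held a bin at 5-fold or more in all 4 libraries. Without them MEF and secondary MEF H3K9me3 over the other 1487 were 1.73-fold and 2.64-fold. Leaving out so few domains could hardly move the pooled levels, so no conclusion is drawn from this.

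The words "without H3K27me3" mean under the 2-fold limit and not free of reads. H3K27me3 in the domains was 1.43-fold (1.42 to 1.44) with reads pooled, above the library mean, and 664 domains (44.6%) had between 1.5-fold and 2-fold. Only 248 were under 1-fold, 13 of them under 0.5-fold. At least 1 bin of 2-fold or more was present in 1186 domains (79.7%), and one of 5-fold or more in 11 (0.739%). These counts were not made for other regions. At a library mean of 4.42 H3K27me3 reads per 1 kb bin, single bins are coarse. Just inside the 2-fold limit were 6 kb at chr19:5473001-5479000 and 6 kb at chr2:25940001-25946000, each with 53 H3K27me3 reads (interval 1.50-fold to 2.61-fold). Just outside were 7 kb at chr13:60182001-60189000 and 7 kb at chr19:5808001-5815000, each with 62 reads (1.53-fold to 2.57-fold). These intervals overlap almost wholly and take in the limit.

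H3K27me3 was lower outside the domains than inside them, and lowest close to the edge. The first and second bin outside stood at 1.01-fold (0.993 to 1.03) and 1.01-fold (0.988 to 1.02), the 5 kb outside at 1.04-fold (1.03 to 1.04) and the stretch from 11 to 20 kb at 1.16-fold (1.16 to 1.17), in bins outside any H3K4me3 region. Inside, the outermost bins had 1.32-fold (1.30 to 1.34) and the bins behind them 1.50-fold (1.48 to 1.52). Of the 1489 domains 1211 (81.3%) had more H3K27me3 inside than in their own 5 kb on each side. The same count was not made for other regions. With only the 248 domains under 1-fold, the 5 kb outside stood at 0.750-fold, below the library mean. Around the long regions that carried H3K27me3, the first bin outside was at 2.31-fold (2.28 to 2.35) and the mark declined with distance, to 1.79-fold from 11 to 20 kb. The course around the domains was shared by regions of 1 to 4 kb with low H3K27me3. They had 1.28-fold inside, 1.01-fold and 0.989-fold in the first and second bin outside, and 1.07-fold from 11 to 20 kb.

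Past the edges H3K4me3 dropped within 1 kb, which the threshold requires in part, as any outer bin must be under 3-fold. The first bin outside was at 1.48-fold and the stretch from 6 to 10 kb at 0.883-fold, against 10.4-fold in the outermost bins and 28.0-fold in the next. Both H3K9me3 libraries were also lower outside. MEF H3K9me3 was 1.21-fold (1.19 to 1.23) in the first bin outside and 1.30-fold (1.29 to 1.30) from 11 to 20 kb, with 1.57-fold and 1.76-fold in the first and second bin inside. Secondary MEF H3K9me3 was 1.51-fold (1.49 to 1.53) in the first bin outside, 1.37-fold (1.36 to 1.38) from 11 to 20 kb, and 2.25-fold and 2.73-fold inside. Approaching a domain from outside, H3K27me3 and MEF H3K9me3 thus declined a little while secondary MEF H3K9me3 became slightly higher, and inside all 3 were above their flanks. Regions of 1 to 4 kb with low H3K27me3 went the same way. From 11 to 20 kb outside to the first bin, their MEF H3K9me3 went from 1.21-fold to 1.19-fold. Their secondary MEF H3K9me3 went from 1.23-fold to 1.47-fold.

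**Figure D3:**
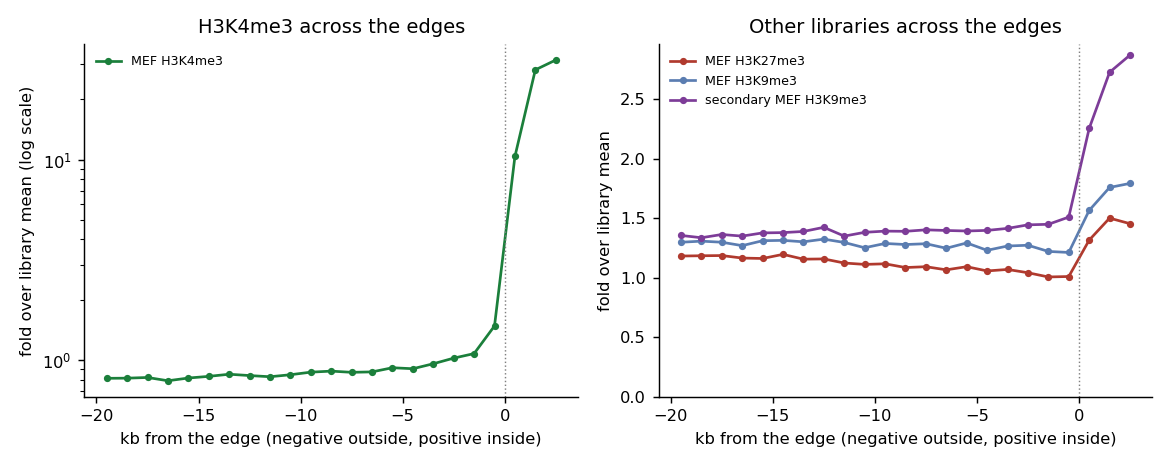
Pooled fold over the library mean in 1 kb steps from 20 kb outside to 3 kb inside both edges of the 1489 domains, with MEF H3K4me3 on a log scale at left and the other 3 libraries at right; bins of other H3K4me3 regions are left out of the outside steps. H3K4me3 climbs from 1.48-fold to 10.4-fold over the edge, and H3K27me3 is lowest, at 1.01-fold, in the first 2 bins outside.

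Domains had close neighbours. The nearest other H3K4me3 region began a median of 4 kb away, against 8 kb for regions of 1 to 4 kb with low H3K27me3 and 4 kb for long regions with H3K27me3. It was separated by just 1 bin for 346 domains (23.2%) and lay beyond 50 kb for 63. Within 5 kb of an edge, 1027 of the 2978 domain sides had another region. Of those neighbours 614 (59.8%) were regions of 1 to 4 kb with low H3K27me3, which make up 48.9% of all regions. A further 112 (10.9%) were other domains, against 4.20% of all regions, and 277 were short regions with H3K27me3, which make up 44.6%. Runs of H3K27me3, taken as 3 or more adjacent bins at 3-fold or more, lay a median of 92 kb from a domain, and 93 domains (6.25%) had one within 10 kb. For regions of 1 to 4 kb with low H3K27me3 the median was 145 kb, with 5.18% within 10 kb, and for all H3K4me3 regions it was 76 kb, with 21.9%. For the long regions with H3K27me3 the median was 18 kb. Long regions can hold such a run themselves, so this difference follows in part from the choice.

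Some megabases held several domains. The next domain was a median of 165 kb away, 178 domains had another within 10 kb and 623 (41.8%) within 100 kb. In all, 280 stood more than 1 Mb from any other. This spacing was not measured for other H3K4me3 regions, so whether domains lie closer together than those was not tested. Domains parted by a single bin under the threshold count separately. The part of this joining rule in the spacing was not tested. The densest window was chr11:69000001-70000000 with 11 domains among 49 H3K4me3 regions. Next were chr8:87000001-88000000 with 9 of 72 and chr10:79000001-80000000 with 8 of 86, the latter equalled by 2 further windows. By chromosome the density ran from 4.94 domains per 10 Mb on chromosome 14 to 12.6 on chromosome 11, followed by chromosomes 19 (10.9), 17 (10.7) and 7 (10.4). Set against all H3K4me3 regions of a chromosome, the range was narrower, from 3.25 domains per 100 regions on chromosome 9 to 5.42 on chromosome 17.

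Reads with 2 locations were rare in the domains. For every 100 reads with a single location, H3K4me3 had 1.49 positions of reads with 2 locations in the domains, against 4.49 over the autosomes. For MEF H3K9me3 these numbers were 2.37 and 6.61, and for secondary MEF H3K9me3 1.95 and 6.80. The regions of 1 to 4 kb with low H3K27me3 had 3.42 for H3K4me3.

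Reads of the H3K9me3 libraries were more frequent in the domains than on average, and more so in secondary MEF. Pooled over all domains, MEF H3K9me3 stood at 1.73-fold (1.71 to 1.74) and secondary MEF H3K9me3 at 2.64-fold (2.63 to 2.66) over the library mean. The median domain had 1.67-fold (quartiles 1.31 and 2.03) and 2.52-fold (1.98 and 3.06). Relative to bins 6 to 20 kb outside the domains the pooled levels were lower, at 1.34 and 1.92 times, a scaling added after the data were seen. Of the 1489 domains 1185 were above their own 5 kb flanks in MEF and 1392 in secondary MEF. This count was not made for other regions. With reads pooled, regions of 1 to 4 kb with low H3K27me3 also stood above the 5 kb outside them. They had 1.61-fold against 1.20-fold in MEF, and 2.34-fold against 1.34-fold in secondary MEF. Long regions with H3K27me3 had 3.36-fold against 1.76-fold in MEF, and 4.38-fold against 1.77-fold in secondary MEF. No input library was used, so whether these reads carry the mark or are background of accessible chromatin was not tested. Over the same domains H3K27me3, which the rule kept under 2-fold on average, stood at 1.43-fold with reads pooled. Whether it shares a source with the H3K9me3 reads was not tested.

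Counted one by one, 401 domains (26.9%) reached 2-fold in MEF and 1115 (74.9%) in secondary MEF. Among all autosomal 5 kb windows the shares were 7.53% and 7.39%. In regions of 1 to 4 kb with low H3K27me3 they were 24.3% and 55.8%, and in long regions with H3K27me3 77.6% and 96.4%. Among all H3K4me3 regions they were 44.1% and 67.0%. The share in MEF was thus below that of H3K4me3 regions at large, which include those rich in H3K27me3, and the count depended on the H3K27me3 limit: with only the 248 domains under 1-fold H3K27me3, 7 reached 2-fold in MEF and 79 in secondary MEF. Both libraries were at 2-fold or more in 389 domains, which is 97.0% of the MEF list and 34.9% of the secondary MEF list. That is 26.1% of the domains, against 3.47% of 5 kb windows, 36.7% of all H3K4me3 regions and 18.8% of the regions of 1 to 4 kb with low H3K27me3. At 4-fold or more there were 2 domains in MEF (0.134%), a share below the 0.249% of windows. In secondary MEF there were 93 (6.25%), against 0.286% of windows. Shares at 4-fold were not counted over H3K4me3 regions.

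Inside the domains all 3 other libraries were highest where H3K4me3 was highest. In bins with H3K4me3 between 3-fold and 6-fold, MEF H3K9me3 was 1.52-fold (1.49 to 1.54), and between 12-fold and 24-fold it was 1.51-fold (1.48 to 1.54), within the same interval. Above that it was 2.51-fold (2.46 to 2.55) between 48-fold and 96-fold and then 3.75-fold (3.61 to 3.91) in the 164 bins of 96-fold or more. Secondary MEF H3K9me3 went from 2.11-fold (2.08 to 2.14) in the lowest class to 6.61-fold (6.40 to 6.82) in the highest. H3K27me3, although limited over each domain as a whole, went from 1.18-fold (1.16 to 1.19) to 2.84-fold (2.72 to 2.96). Measured from the highest bin outward, MEF H3K9me3 was 2.45-fold at the summit and 1.59-fold, 1.48-fold and 1.56-fold at distances of 1, 2 and 3 kb. The secondary library had 4.01-fold at the summit, then 2.52-fold, 2.20-fold and 2.25-fold.

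**Figure D4:**
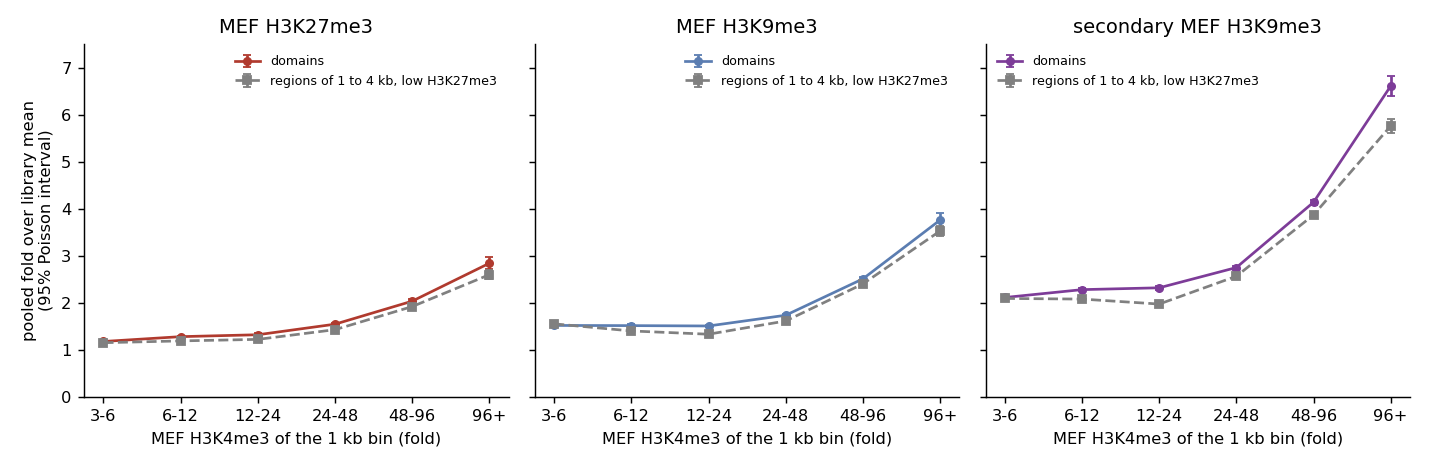
Pooled fold over the library mean, with 95% Poisson intervals, of MEF H3K27me3, MEF H3K9me3 and secondary MEF H3K9me3 in 1 kb bins grouped by their MEF H3K4me3 level, for the domains and for H3K4me3 regions of 1 to 4 kb with low H3K27me3. All 3 libraries are highest in the bins of 96-fold or more, where the domains have 2.84-fold, 3.75-fold and 6.61-fold.

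At the same H3K4me3 height, short regions were mostly a little below the domains. Regions of 1 to 4 kb with low H3K27me3, 17316 in number, had pooled levels of 1.61-fold (1.61 to 1.62) for MEF H3K9me3 and 2.34-fold (2.33 to 2.35) for the secondary library. Bins of 96-fold or more had 3.52-fold (3.42 to 3.63) and 5.76-fold (5.61 to 5.90) there, below the domains in secondary MEF and with overlapping intervals in MEF. In bins between 12-fold and 24-fold the short regions were below the domains in both libraries. MEF had 1.33-fold (1.31 to 1.35) against 1.51-fold in the domains, and secondary MEF 1.97-fold (1.95 to 2.00) against 2.32-fold (2.28 to 2.36). H3K27me3 was lower in the short regions too, with 1.22-fold (1.20 to 1.24) against 1.32-fold (1.29 to 1.35) between 12-fold and 24-fold. In bins of 96-fold or more it was 2.59-fold (2.51 to 2.68) against 2.84-fold (2.72 to 2.96). The part of H3K27me3 in the lower H3K9me3 levels of the short regions was not tested. In the bins between 3-fold and 6-fold the order was not the same in both H3K9me3 libraries: MEF had 1.55-fold (1.54 to 1.56) in short regions, above the domains. Within the domains, pooled MEF H3K9me3 went from 1.65-fold (1.63 to 1.67) at 5 kb to 1.99-fold (1.90 to 2.09) at 20 kb or more. The secondary library went from 2.52-fold (2.49 to 2.55) to 3.12-fold over the same classes. H3K27me3 went along with it, from 1.36-fold (1.35 to 1.38) to 1.56-fold (1.48 to 1.64). The long regions with H3K27me3 were above the domains in both libraries, with medians of 2.41-fold (MEF) and 3.25-fold (secondary MEF).

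Domains with more H3K27me3 had more reads in both H3K9me3 libraries. In domains under 0.5-fold H3K27me3, MEF H3K9me3 was 0.754-fold (0.659 to 0.858) and secondary MEF H3K9me3 1.21-fold (1.08 to 1.35). Between 1.5-fold and 2-fold H3K27me3 they were 1.99-fold (1.97 to 2.01) and 3.04-fold (3.01 to 3.07). H3K4me3 was higher as well, from 14.1-fold to 23.9-fold. Across the 1489 domains Spearman's rho was 0.574 between H3K27me3 and MEF H3K9me3, 0.549 between H3K27me3 and secondary MEF H3K9me3, and 0.657 between the H3K9me3 libraries. Mean H3K4me3 was less closely related to them, with rho of 0.133 and 0.264. These values share the same bins and their base composition, and the MEF libraries share a flow cell. The part of these features in the relations was not tested.

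Both H3K9me3 libraries were made with the same antibody lot. Over the domains the secondary library was the higher, with a ratio of folds of 1.53 (1.52 to 1.55). Outside H3K4me3 regions the same ratio was 0.978. It was 1.45 (1.44 to 1.46) in the short regions with low H3K27me3 and 1.30 (1.29 to 1.32) in the long regions with H3K27me3, or 1.37 (1.36 to 1.39) without the 81 of them that held a bin at 5-fold or more in every library. At the same mean H3K4me3, domains and short regions were close in strong regions. Between 12-fold and 24-fold the ratios were 1.48 (1.45 to 1.50) and 1.47 (1.45 to 1.50). At 24-fold or more they were 1.58 (1.55 to 1.60) and 1.56 (1.54 to 1.57). In weaker regions the domains were higher, with 1.45 (1.39 to 1.51) and 1.35 (1.34 to 1.37) between 3-fold and 6-fold. Between 6-fold and 12-fold the ratios were 1.56 (1.52 to 1.61) and 1.49 (1.46 to 1.52). By length of the domain the ratio lay between 1.50 and 1.58 in 7 classes. By H3K27me3 it was 1.61 (1.35 to 1.91) under 0.5-fold and 1.53 (1.51 to 1.55) between 1.5-fold and 2-fold. By H3K4me3 height it went from 1.39 (1.36 to 1.42) in bins between 3-fold and 6-fold to 1.76 (1.67 to 1.85) at 96-fold or more. Outside the domains it was 1.25 (1.22 to 1.27) in the first bin, 1.17 (1.15 to 1.18) over the first 5 kb, 1.09 (1.08 to 1.10) from 6 to 10 kb and 1.06 (1.05 to 1.06) from 11 to 20 kb. H3K4me3 of secondary MEF was not analysed here, so the height refers to MEF.

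Of 1488 domains with at least 20 H3K9me3 reads in both libraries together, 1406 (94.5%) had a ratio above 1, and the median was 1.52 (quartiles 1.27 and 1.79). With the same minimum of reads, a ratio above 1 was found in 48.2% of 5 kb windows, where the median was 0.979, and in 72.5% of all H3K4me3 regions. The share was 84.5% in the regions of 1 to 4 kb with low H3K27me3, which hold fewer reads each, and 85.1% in the long regions with H3K27me3. A ratio of at least 2 with an interval that allows 0.1% error and excludes 1 was reached by 155 domains (10.4%). The shares were 0.736% of windows and 2.87% of all H3K4me3 regions. The corresponding loss was reached by 0 domains, against 0.585% of windows and 0.294% of all H3K4me3 regions, and no domain had a ratio of 0.5 or less. The rule asks for a 2-fold difference, so domains that did not pass are not shown to be alike. It is also more easily passed with more reads, so these shares do not compare like with like. A median domain held 39 MEF and 55 secondary MEF H3K9me3 reads, and a median H3K4me3 region 13 and 15 before the minimum was applied. The part of read number in the gap was not tested, and passing regions were not counted by class.

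Many of the higher domains were on chromosome 12. It held 39 of the 155, from 54 domains compared there (72.2%), where 5.92% of its 5 kb windows passed. Without it 116 of 1434 domains (8.09%) passed, against 0.459% of windows. Its domains had 3.90-fold secondary MEF H3K9me3 and 1.70-fold MEF H3K9me3, a ratio of 2.30 (2.19 to 2.41), while the 18 other autosomes had ratios from 1.27 on chromosome 4 to 1.64 on chromosome 8. Bins of chromosome 12 outside H3K4me3 regions had a ratio of 1.43 themselves, and those of the other autosomes 0.856 to 1.03. Relative to these bins the domains of chromosome 12 were 1.605 times higher, inside the range of 1.49 to 1.63 for the other autosomes. The domains were above the bins outside H3K4me3 regions on all 19 autosomes. Without chromosome 12 the pooled ratio over the domains was 1.50.

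**Figure D5:**
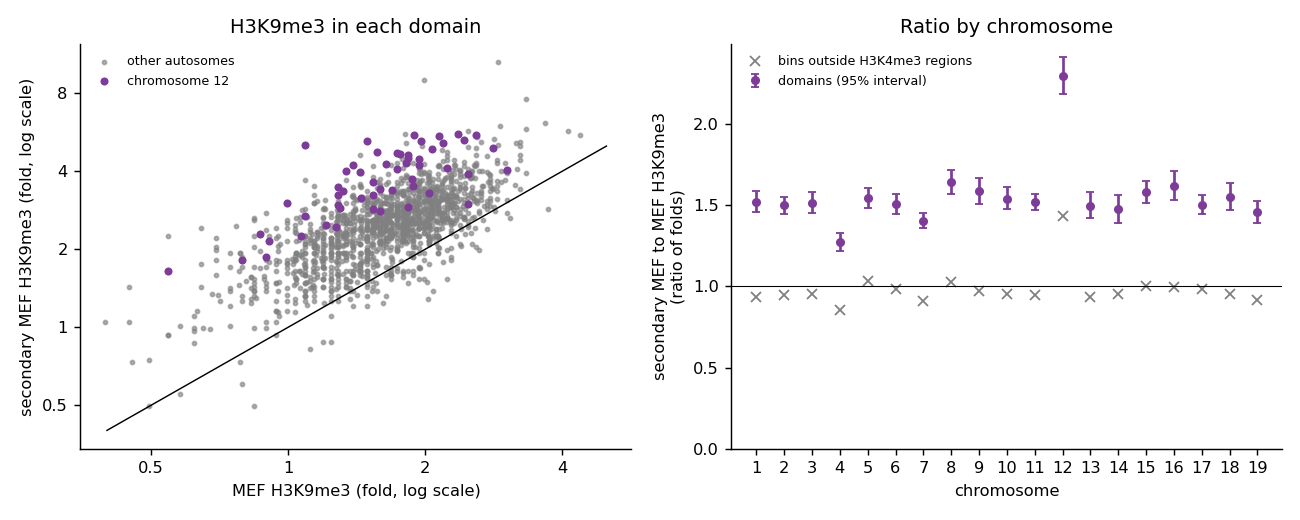
Left, MEF against secondary MEF H3K9me3 in each of the 1489 domains, as fold over the library mean on log axes, with chromosome 12 in colour and the line of equal folds. Right, the ratio of folds by chromosome for the domains (95% interval) and for bins outside H3K4me3 regions. Nearly all points lie above the line, and chromosome 12 stands apart at right in both measures, at 2.30 and 1.43.

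The domains with the largest ratios differed in how much H3K9me3 they held. The largest ratio, 4.64 (2.18 to 11.2 allowing 0.1% error, as in this paragraph throughout), was at chr12:87712001-87717000, with 22 reads in MEF and 92 in secondary MEF. At chr9:21473001-21478000 there were 40 and 164 reads, or 1.98-fold and 9.03-fold, a ratio of 4.55 (2.58 to 8.57). It had a summit of 98.1-fold H3K4me3 and, at 1.99-fold, H3K27me3 just under the limit. At chr8:35612001-35617000 the ratio of 4.14 (1.41 to 15.7) rested on 11 and 41 reads, and at chr5:96400001-96405000 that of 3.76 (1.37 to 12.7) on 13 and 44 reads. In both of these MEF H3K9me3 was below the library mean and the secondary library only a little above 2-fold. The most H3K9me3 reads among these 5 were found in 9 kb at chr18:37940001-37949000, with 105 MEF reads and 344 reads of the secondary library, 100 and 328 of them at distinct positions. Its levels were 2.89-fold and 10.5-fold, the highest secondary level of any domain, at a ratio of 3.63 (2.53 to 5.34). H3K4me3 had 3 summits there, none above 19.2-fold, and it was the only domain with 3. Among the 10 longest domains the widest difference was in the 25 kb on chromosome 12 from 81127001, with 2.14-fold and 5.46-fold, a ratio of 2.55 (1.95 to 3.36).

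H3K9me3 was strong in both libraries in a small set of domains. Ranked by the lower of both folds, the first was chr17:27983001-27988000 with 4.36-fold (3.50 to 5.38) in MEF and 5.50-fold (4.48 to 6.69) in secondary MEF. It was followed by chr15:72634001-72639000 with 4.12-fold and 5.72-fold, chr17:26309001-26314000 with 3.67-fold and 6.16-fold, chr11:75265001-75272000 with 3.33-fold and 3.93-fold, and chr17:12583001-12588000 with 3.32-fold and 7.59-fold. Thus 3 of the 5 were on chromosome 17. The first and the third had low H3K4me3 for a domain, with summits of 15.5-fold and 13.3-fold, whereas the one on chromosome 11 reached 95.2-fold. H3K27me3 in the 5 domains was between 1.22-fold and 1.68-fold, under the limit set by the rule.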

How the data were processed

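ChIP-seq of 4 libraries was used, 1 per group. The deposited files hold signed positions of aligned reads, with no count, normalisation or duplicate removal stated. Bowtie placed the authors' reads on mm8, per the file headers (-e 70 -k 2 -m 2 -n 2 -l 36 --best --concise); its version is not given in the sources used here. Per the labels' protocols, chromatin of about 500 bp was amplified over 18 cycles and cut from a gel at 150 to 350 bp, so reads mark short fragments. Reads with more than 2 locations are missing, which thins repeats.

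Autosomal reads with a single location were moved 75 bp to the 3' side (read length 36 assumed, minus-strand positions taken as the lowest base) and counted in 1 kb bins with Python 3.11.15, numpy 2.4.6 and scipy 1.17.1. Folds, joining and limits are given in the text. Intervals are exact Poisson for folds and Clopper-Pearson for ratios. The background of calls was taken over 465826 windows of 5 kb with a read in any library. The rule and the ratio call were also run on simulated bins, with domains of even height on an even background. That run did not model the summits or the differences between chromosomes seen here, so it is not used as support. Named domains are the 10 longest, the 10 highest, the 5 largest passing ratios in each direction (none was lower), the 5 highest in both H3K9me3 libraries, the 3 densest megabases and the pairs beside the H3K27me3 limit. The members, lists and thresholds were chosen with earlier results of these data known. Gene models and sequences of mm8 were not used here.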

Additional observations from a re-analysis of the deposited data

How the results depend on the processing

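The direction of each pooled level and of the ratio was the same under all alternatives run, except for H3K27me3 in the 5 kb outside the domains, which went from 1.04-fold to 0.750-fold when domains had to be under 1-fold H3K27me3. That limit left 248 domains with a median of 5 kb, MEF and secondary MEF H3K9me3 at 1.19-fold and 1.81-fold, and 7 and 79 domains at 2-fold. A minimum length of 10 kb left 138 domains with a median of 11.5 kb, levels of 1.92-fold and 2.96-fold, 60 and 122 domains at 2-fold, and H3K27me3 of 1.19-fold outside. A 4-fold H3K4me3 threshold gave 939 domains, 1.75-fold, 2.72-fold, a ratio of 1.55, 734 domains at 2-fold in secondary MEF and 1.08-fold H3K27me3 outside. A 2-fold threshold gave 2663 domains, 1.71-fold, 2.53-fold, a ratio of 1.48, 676 and 1899 domains at 2-fold, and 1.01-fold outside. Bridging a bin gave 2.57-fold in secondary MEF, a ratio of 1.50 and 1.06-fold outside. Bins starting 500 bp later gave 2.62-fold and a ratio of 1.51. Thinning all libraries to the shallowest gave 1.71-fold and 2.62-fold. Outside H3K27me3 was 1.05-fold with a longer read shift, with a single read per position, and with two-location reads added. Without chromosome 12, secondary MEF H3K9me3 was 2.60-fold and the ratio 1.50. The ratio was 1.57 when scaled by bins under 3-fold H3K4me3. Scaled to bins 6 to 20 kb outside the domains, an alternative added after the data were seen, the levels were 1.34 and 1.92 times and the ratio 1.44. The causes were not tested, beyond the smaller or larger set of domains that each limit selects. No paired analysis was possible because each group holds 1 library. Depth limits single domains, where 3 reads in 5 kb equal 0.149-fold (MEF H3K9me3) or 0.165-fold (secondary MEF).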
